A study of Homo sapiens with 192 samples.

Results

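C/D box small nucleolar RNAs (snoRNAs) were measured in human colorectal cancer cells of 4 lines (HT29, HCT116, LS174T and LS513) under 2D and 3D growth. The members were the identifiers whose symbol begins with SNORD and whose counts, summed over all libraries, reached 100, so they were chosen by their total level and that level is a description here. The comparison of 3D with 2D growth was also known when the class was taken up. Of the 58243 identifiers counted, 315 carried a SNORD symbol, 167 of these had no count in any library, 77 had between 1 and 99 counts, and 71 identifiers with 69 symbols were members. The members held 68545 counts, which were 96.5% of the SNORD counts and 0.00938% of all counts. Just inside the limit lay SNORD56 with 106 counts and SNORD24 with 114, and just outside it lay SNORD54 with 95 and SNORD14E with 93. The brain-enriched families stayed outside, with 0 counts for all identifiers of SNORD113, SNORD115 and SNORD116 and 1 count in all for the 30 identifiers of SNORD114. By the study's methods, reads that aligned at several places in the genome were removed. How far this lowered the counts of these families of many copies was not tested.

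Each line in each growth condition had 3 libraries, so that 24 libraries formed 8 groups, and the labels name no genetic change and no drug. The labels name the groups by line and growth, HT29, LS513, HCT116 or LS174T with 2D or 3D growth, and the sources used here do not say how the 3D cultures for sequencing were made. The methods state that HCT116 was kept in a different medium from the other lines. The libraries were stranded and made from RNA selected with oligo(dT). The labels list 8 technical replicates of each library, and their counts were summed. For HT29 3D replicate 4 the counts of 7 were used. The labels do not say whether replicates came from separate cultures, so p-values measure the spread between these libraries, which may be technical. Each line is a single established tumour line and stands for itself.

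C/D box snoRNAs guide 2′-O-methylation of ribosomal and spliceosomal RNA. In human cells most lie in introns of host genes, are released from the spliced intron as it is trimmed, and are protected by the core proteins NOP56, NOP58, FBL and SNU13, which assemble on the C and D boxes near the ends of the RNA. The mature RNA has no poly(A) tail, so that a library selected with oligo(dT) reads these loci where they lie in longer polyadenylated RNA or are carried over. The counts below are therefore reads that overlap a C/D box snoRNA gene and are not a measure of the mature snoRNA alone.

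Members were 64 to 699 bases long with a median of 78. The sequences below are those of the members with the lowest adjusted p among the falls in each line (SNORD17 in HT29, SNORD52 in HCT116 and LS513, SNORD110 in LS174T), of the member with the highest level per length (SNORD49B), and of SNORD36A and SNORD49A, which were added after their values were seen. They were taken from GENCODE 29 transcripts (build GRCh38), run 5′ to 3′, and carry in capitals the C box TGATGA where it lay in the first 20 bases and the D box CTGA where it lay in the last 12. SNORD52 lies at chr6:31837076-31837142 on the plus strand, SNORD36A at chr9:133350456-133350528 on the plus strand, SNORD49A at chr17:16440036-16440106 and SNORD49B at chr17:16439505-16439576 on the plus strand, SNORD110 at chr20:2654212-2654286 on the plus strand, and SNORD17 at chr20:17962710-17962946 on the minus strand.
SNORD52: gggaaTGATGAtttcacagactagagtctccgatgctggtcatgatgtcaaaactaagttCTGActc
SNORD36A: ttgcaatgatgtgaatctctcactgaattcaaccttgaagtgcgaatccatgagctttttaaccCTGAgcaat
SNORD49A: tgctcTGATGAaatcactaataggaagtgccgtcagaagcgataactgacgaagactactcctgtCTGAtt
SNORD49B: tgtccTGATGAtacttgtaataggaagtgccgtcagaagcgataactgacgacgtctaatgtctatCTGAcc
SNORD110: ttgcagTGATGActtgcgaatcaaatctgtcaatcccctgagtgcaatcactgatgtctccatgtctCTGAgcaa
SNORD17: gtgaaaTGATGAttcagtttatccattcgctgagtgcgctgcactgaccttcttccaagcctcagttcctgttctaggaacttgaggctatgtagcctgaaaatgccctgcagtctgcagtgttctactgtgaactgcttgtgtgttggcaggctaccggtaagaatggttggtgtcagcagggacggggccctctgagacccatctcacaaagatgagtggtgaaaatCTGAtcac

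The label was checked against these letters on the sense strand. Among the 71 members, 46 (64.8%) held TGATGA in that window and 60 (84.5%) held CTGA, against 0.68% and 2.72% of the 147 H/ACA box identifiers, the other snoRNA class. All SNORD identifiers gave 65.3% and 83.8%. SNORD49A and SNORD49B shared an unbroken stretch of 35 bases, so the pair is related in sequence. A match is a description of letters and does not say that a box is used.

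Of the 71 members, 70 lay inside a gene on the same strand, here called the host. There were 38 hosts, 29 of them protein-coding with 51 members and 9 noncoding with 19. Ribosomal protein genes made up 14 of the hosts and held 30 members. SNHG1, a noncoding gene known as a carrier of snoRNAs, held 7 members, and RPL7A, RPL13A and NOP56 held 4 each. NOP56 is itself a core protein of the C/D box particle. SNORD3A, the U3 RNA of pre-rRNA processing, has its own promoter and had no host.

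Members were also placed by the exons of the host. By GENCODE 29, 5 members lay in an exon of a transcript of the basic set, the annotation's representative transcripts (SNORD49B, SNORD58B, SNORD25, SNORD118 and SNORD12). A further 51 overlapped exons of other host transcripts, 14 lay in introns of every annotated host transcript, and 1 had no host. A read over overlapping identifiers was counted for each of them: the 2 identifiers of SNORD38B had 227 and 225 counts and differed by at most 1 in any library, and SNORD60 and the overlapping RF00345 had 374 and 371. A read in a host exon that also covers a member was thus open to being counted for both. SNORD4A and SNORD97 lie wholly opposite an exon of another gene, and SNORD10 is set against AC016876.2, a transcript that spans EIF4A1 as well, so the values of these 3 are uncertain.

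Member levels per length spanned more than 2 orders of magnitude. Per kilobase of the gene, mean levels over the 24 libraries ranged from 1.78 CPM (counts scaled to a common library size by TMM, a scaling that evens out composition) for SNORD97 to 314 for SNORD49B, leaving SNORD3A aside, with a median of 5.10 over all members. SNORD3A had 1.58 CPM per kilobase over its gene span of 699 bases and 5.10 over its transcript of 217 bases, and without HT29 2D replicate 3, where most of its counts lay, these values were 0.304 and 0.980. Of the 40-base stretches of SNORD3A, 94.4% also occur in other SNORD3 genes. As reads aligned at several places had been removed, its level may be undercounted. SNORD97 also rested largely on a single library, which held 85 of its 129 counts, while its median library held 2. Because a read overlapping a short gene by few bases still counts, levels per kilobase of such genes are raised relative to long genes. SNORD49B, in LRRC75A-AS1, SNORD58B, in RPL17, with 276 CPM per kilobase, and SNORD86, in NOP56, with 126, held 55.4% of the member counts. SNORD25 in SNHG1 (35.2), SNORD104 in SNHG25 (33.9), SNORD36A in RPL7A (29.6), SNORD68 in RPL13 (16.4), SNORD22 in SNHG1 (16.2) and SNORD49A in LRRC75A-AS1 (13.4 CPM per kilobase) followed. The median member had 326 counts in all and 11.5 in its median library, so that most values rest on few reads.

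Set against the host per kilobase, median levels also differed by position, with ranges that overlapped. The 5 members in basic-set exons had a median of 119% of the level per kilobase of the host, and the 14 members in introns had a median of 3.07%. For the 51 members in other exons the median was 3.64%. The ranges were 6.73% to 203% in basic-set exons, 0.249% to 281% in introns and 0.28% to 186% in other exons. SNORD49B reached 203% of LRRC75A-AS1, SNORD86 186% of NOP56 and SNORD104 281% of SNHG25, a host of low level.

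Library totals ran from 18723942 counts (HT29 2D replicate 3) to 34277421, and members held 1518 to 4474 counts a library. A count of 0 allowed a level of up to 0.0875 CPM in the deepest library and 0.160 CPM in the shallowest, counting error alone. The epithelial markers EPCAM, KRT8, KRT18 and KRT19 were expressed in every group, with mean EPCAM levels of 273 to 1754 CPM, whereas in HCT116 CDX1, CDH17, VIL1 and LGALS4 had means under 0.4 CPM. COL1A2 of fibroblasts and CD3E of T cells were at 0 in every group, and the leukocyte gene PTPRC had a mean of at most 0.023 CPM. The 5 listed fibroblast markers together had means of 14.3 CPM in HCT116 2D and 16.4 in HCT116 3D. Their means in 2D and 3D were 1.01 and 0.82 CPM in HT29, 0.57 and 0.74 in LS513, and 0.39 and 0.43 in LS174T. LYZ, a lysozyme gene that leukocytes and gut epithelium express, was higher in HT29 3D (2550 CPM) than in 2D (1373 CPM), with PTPRC and CD3E at or near 0 there. LYZ also rose in LS513 and LS174T and CD14 in HT29, VWF of endothelium rose in LS513 and HCT116 from means of 0.0414 and 0.26 CPM, and no tested fibroblast marker was called. Epithelial markers rose in 7, 7, 4 and 6 of 12 cases in HT29, LS513, HCT116 and LS174T and fell in 1, 0, 0 and 0.

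Some libraries stood apart. HT29 2D replicate 3 held 347 CPM of RN7SK, a nuclear RNA without a poly(A) tail, against 1.82 and 3.06 in its sister libraries, and 348 CPM of RMRP against 1.06 and 1.93. Its C/D box snoRNAs summed to 129 CPM against 90.7 and 90.5, and its H/ACA box snoRNAs to 195 CPM against 64.1 and 59.3. LS174T 3D replicate 2 held 63.4 CPM of RN7SK against 0.92 and 1.17, and 163 CPM of members against 107 and 99.3. In HCT116 3D replicate 1, the 68 members other than SNORD49B, SNORD58B and SNORD86 summed to 64.2 CPM, against 31.5 and 28.4 in the other 3D libraries and 62.7 to 70.2 in 2D.

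**Figure D1:**
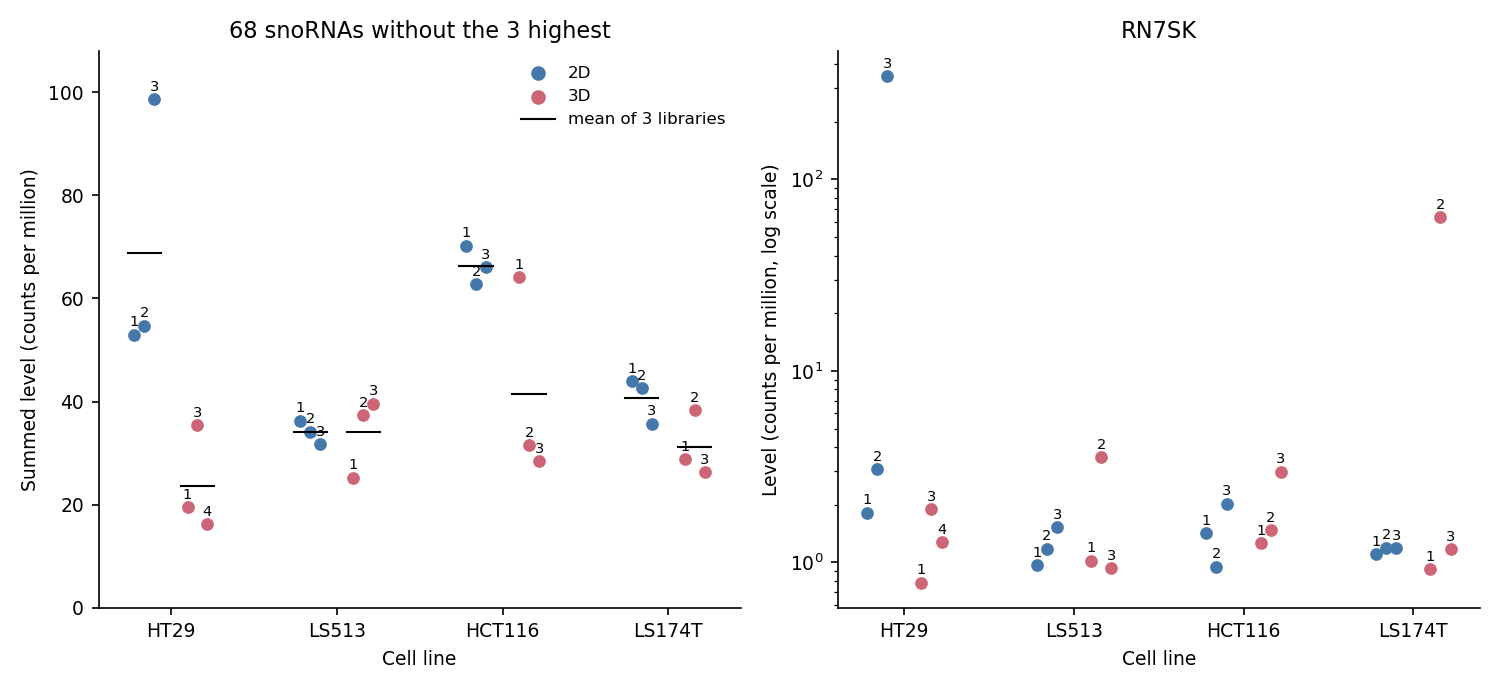
Summed level of the 68 members other than SNORD49B, SNORD58B and SNORD86 in each library (left, CPM, bars at the mean of 3 libraries) and level of RN7SK (right, CPM on a log scale), by line and growth condition, with each point numbered by its replicate. HT29 2D replicate 3 lies highest in both panels, at 98.6 and 347 CPM, and HCT116 3D replicate 1 lies among the 2D libraries of its line in the left panel.

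Growth in 3D was compared with 2D within each line with edgeR's quasi-likelihood test over all genes tested, and changes are log2 fold changes of 3D over 2D with Benjamini-Hochberg adjusted p-values. Of the members, 68 passed the filter on low counts. SNORD24, SNORD56 and SNORD97 did not. In HT29, 38 of the 68 members fell and 0 rose, where 19.6% of all genes tested fell and 21.1% rose. In HCT116, 18 fell and 1 rose (background 12.3% and 16.8%). In LS174T, 6 fell and 3 rose (9.15% and 13.1%, or 22.2% in either direction), and in LS513, 2 fell and 4 rose (9.9% and 13.7%). The median change of the members was -1.64 in HT29, -0.75 in HCT116, -0.45 in LS174T and -0.06 in LS513, while the median over all genes tested lay between 0.00 and 0.02.

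Libraries decided part of these counts, and each is given here with the share of all genes that fell in the same fit. Without HT29 2D replicate 3, 32 members fell in HT29 and 0 rose, all 32 among the 38, with a median of -1.42 (14.3% of all genes). Without HT29 3D replicate 3, 46 of 70 fell (14.2%). Over the 6 libraries of HT29 left out in turn, 28 to 46 members fell, up to 65.7% of those tested, where 13.9% to 15.6% of all genes did. Without HCT116 3D replicate 1, 31 of 70 fell and 1 rose in HCT116, with a median of -1.52 (9.36%). Without each of HCT116 2D replicates 1 and 2 and 3D replicates 2 and 3, 9, 10, 9 and 8 fell and 1 rose in each case, the falls being 13.0%, 14.5%, 12.9% and 11.4% of the members against 7.71%, 8.04%, 8.89% and 12.6% of all genes. The share of members that fell in HCT116 was thus below that of all genes without 3D replicate 3. Without LS174T 3D replicate 2, 3 of 70 fell and 1 rose in LS174T (3.46% fell and 7.05% rose among all genes), and without 2D replicate 1 the counts were 2 and 3 (5.02% and 8.64%) and without 3D replicate 1 they were 3 and 2 (6.30% and 11.7%). In LS513, leaving out 2D replicate 2 left 2 that fell and 1 that rose (5.63% and 9.63%). Calls that held without each library of the line in turn numbered 21 of 38 in HT29, 8 of 19 in HCT116, 2 of 9 in LS174T and 2 of 6 in LS513.

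**Figure D2:**
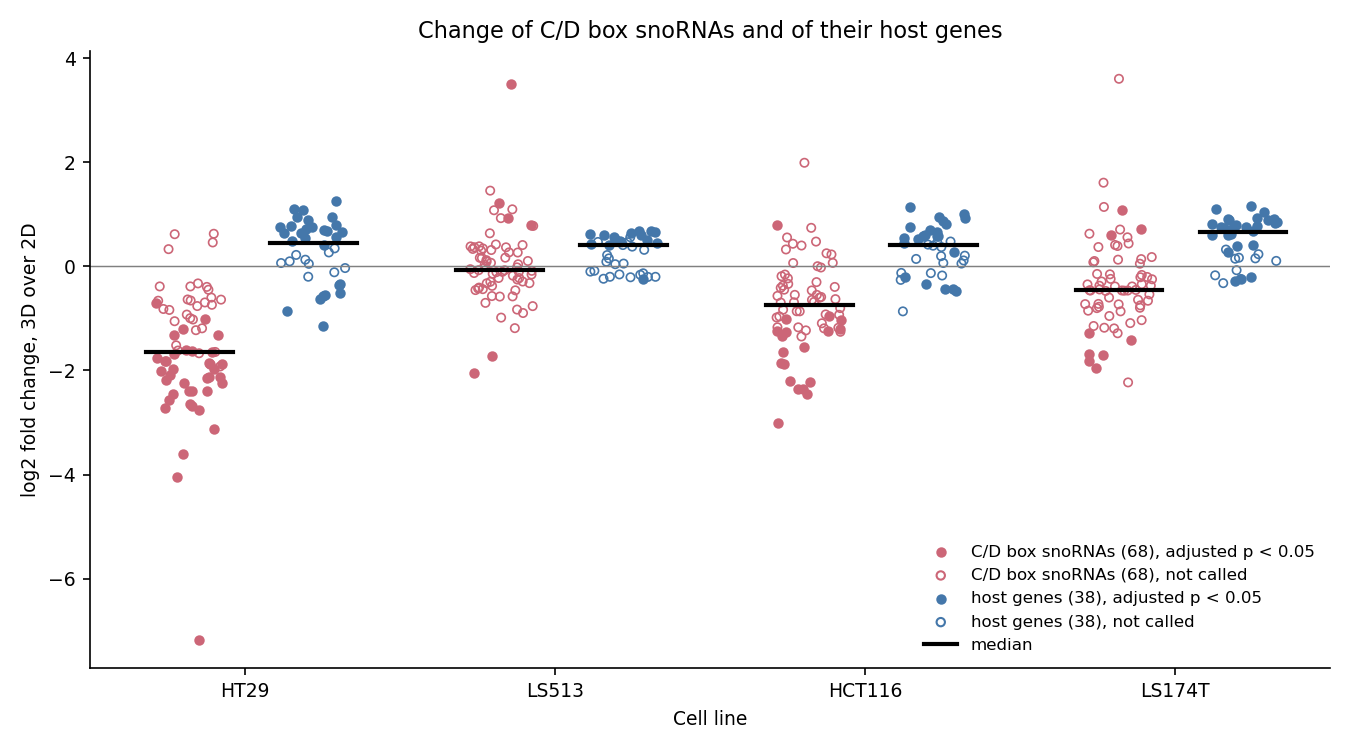
Log2 fold change of 3D over 2D for the 68 tested C/D box snoRNAs (red) and their 38 host genes (blue) in each line, filled where the adjusted p was below 0.05, with bars at the medians. The snoRNA medians lie at -1.64, -0.06, -0.75 and -0.45 from left to right, and the host medians lie between 0.41 and 0.65.

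SNORD52 was the member that fell in all 4 lines, where 2.46% of all genes tested did so. It lies in C6orf48, a gene whose RNA is also known as a snoRNA host. In HCT116 it measured 1.24, 0.98 and 1.12 CPM in 2D and 0.40, 0.20 and 0 in 3D. In LS174T the levels were 0.63, 0.83 and 0.59 CPM in 2D and 0.15, 0.22 and 0.15 in 3D. LS513 gave 0.61, 0.60 and 0.41 CPM in 2D and 0.11, 0.11 and 0.17 in 3D. In HT29 it had 0.55, 0.38 and 0.55 CPM in 2D and 0.09, 0.17 and 0.14 in 3D. Every 3D library lay below every 2D library of its line. The changes were -2.46 ± 0.44 (SE) in HCT116 (adjusted p = 0.000252), -1.95 ± 0.47 in LS174T (0.00544), -2.04 ± 0.52 in LS513 (0.00598) and -1.83 ± 0.53 in HT29 (0.00888). The calls in the first 3 of these held without each library, and in HT29 the adjusted p was 0.0521 without 3D replicate 1.

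A pair of members fell in 3 lines. SNORD14C, a U14 copy in HSPA8, fell in HCT116 (-1.87 ± 0.51, adjusted p = 0.00832), HT29 (-1.61 ± 0.48, 0.0107) and LS174T (-1.69 ± 0.54, 0.0267). It held 1.22 ± 0.38 CPM in HCT116 2D and 0.33 ± 0.23 in 3D (SD, n = 3). The LS174T call was lost without any 1 of the 6 libraries of the line, with adjusted p-values up to 0.0763, the HT29 call without 3D replicate 1 (0.0778) or 4 (0.0632), and the HCT116 call without 2D replicate 1 (0.0534). ENSG00000278527, a second gene named SNORD22 and placed in SNHG1, fell in HT29 (-2.13 ± 0.45, 0.000664), HCT116 (-1.24 ± 0.38, 0.0177) and LS174T (-1.29 ± 0.40, 0.024). Its HT29 call held without each library. In HCT116 it was lost without 2D replicate 2 (0.0672), 3D replicate 2 (0.102) or 3D replicate 3 (0.0809), and in LS174T without 2D replicate 1 (0.0928), 3D replicate 1 (0.0734) or 3D replicate 2 (0.0942).

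A further 17 members fell in 2 lines, 13 of them in HT29 and HCT116, 3 in HT29 and LS174T and 1 in HT29 and LS513. In all, 20 of 68 fell in 2 or more lines, against 13.7% of all genes tested. Another 18 fell in HT29 alone of the 4 tests and 2 in HCT116 alone, which does not show that the lines differ. The fitted change was below 0 in all 4 lines for 31 of the 68 members, against 21.9% of all genes tested.

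SNORD36A, in RPL7A, was among the members with the smallest p in HT29 and in HCT116. In HCT116 it measured 3.68, 3.42 and 3.59 CPM in 2D and 1.93, 1.27 and 1.00 in 3D, and in HT29 3.43, 3.65 and 2.52 in 2D and 1.03, 2.04 and 0.83 in 3D. The groups did not overlap in either line. The change was -1.34 ± 0.27 in HCT116 and -1.31 ± 0.27 in HT29 (adjusted p = 0.000583 for each), and each call held without each library. In LS174T the change was -0.47 ± 0.26 (0.199) and in LS513 -0.22 ± 0.28 (0.624).

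SNORD14D, the second U14 copy of HSPA8, had the steepest fall of any call in HCT116. There it measured 1.66, 1.32 and 1.09 CPM in 2D and 0.30, 0.07 and 0.13 in 3D, with no overlap and a change of -3.01 ± 0.58 (adjusted p = 0.000511). In HT29 it changed by -1.82 ± 0.50 (0.00614, and 0.0505 without 3D replicate 1). The LS513 change was -1.19 ± 0.57 (0.14) and that in LS174T -1.18 ± 0.58 (0.148). SNORD50B, in SNHG5, fell in HCT116 from 0.88, 0.75 and 0.64 CPM to 0.20, 0.07 and 0.17 (-2.36 ± 0.51, 0.0014), and in HT29 by 2.40 on the log2 scale (0.00933, and 0.072 without 2D replicate 2). The HT29 values of SNORD50B rest on 24 counts in 2D and 5 in 3D.

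**Figure D3:**
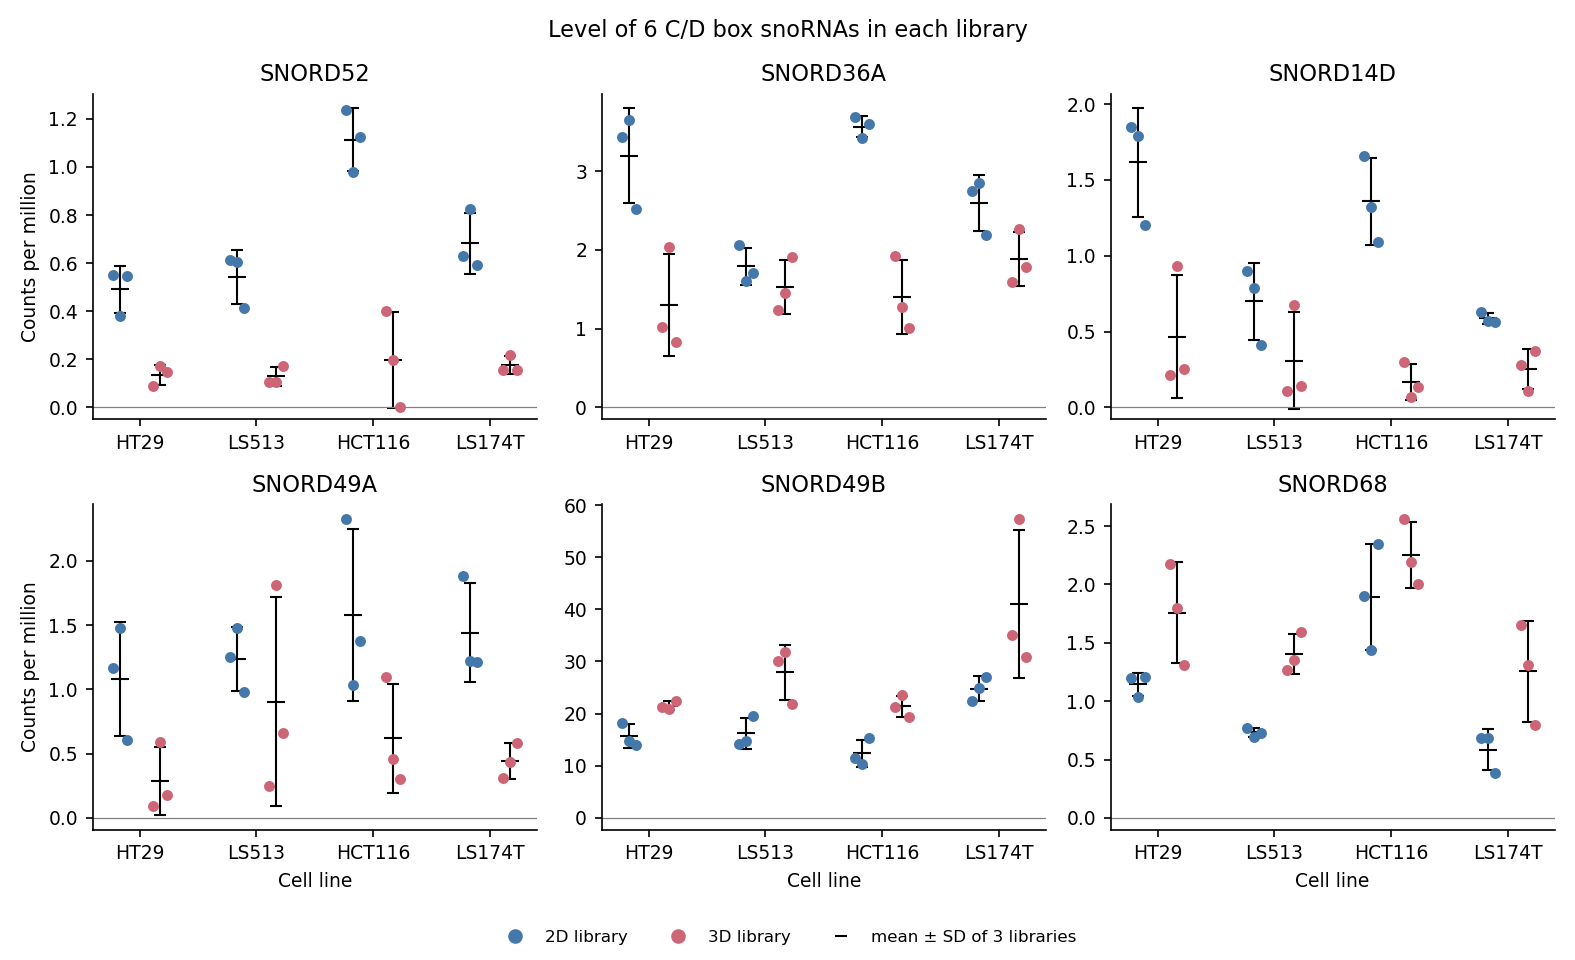
Level of 6 C/D box snoRNAs in each library (CPM, points), with the mean and SD of 3 libraries, by line and growth condition. By mean, SNORD52, SNORD36A and SNORD14D lie lower and SNORD49B lies higher in 3D in all 4 lines. SNORD52 was called in all 4, SNORD36A and SNORD14D in HT29 and HCT116, and SNORD49B in LS513, HCT116 and LS174T.

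In HT29 the smallest adjusted p was that of SNORD17, in an intron of SNX5. It measured 2.06, 2.03 and 8.49 CPM in 2D and 0.85, 0.55 and 0.80 in 3D, so that the groups did not overlap and 2D replicate 3 lay far above the rest. The change was -2.46 ± 0.46 (adjusted p = 0.000199), and without 2D replicate 3 it was -1.44, the smallest change on leaving out a library, with adjusted p-values of at most 0.00302. SNORD26 of SNHG1 (0.99, 0.96 and 0.71 CPM against 0.15, 0.17 and 0.18; -2.40 ± 0.50, 0.000557) and SNORD87 of SNHG6 (0.48, 0.76 and 0.93 CPM against 0, 0.24 and 0.07; -2.76 ± 0.57, 0.000583) had no overlap either, and each HT29 call held without each library. SNORD3A and SNORD15B, an intronic member of RPS3, also fell in HT29, with changes of -7.18 and -3.61 (adjusted p = 0.00683 and 0.00265). Both rested on 2D replicate 3, with 21.7 CPM of SNORD3A against 0.17 and 0.03 and 7.23 CPM of SNORD15B against 0.31 and 0.38. Without it their adjusted p-values were 0.716 and 0.398. RNAs known to lack a poly(A) tail moved with these: 6 of the 16 listed were tested and all 6 fell in HT29, their summed level being 5.42, 8.05 and 1155 CPM in 2D and 6.18 to 11.8 CPM in 3D, whereas without that library 0 of the 6 tested there fell and 2 rose (RN7SL1 and RN7SL2). Their part in the HT29 result was not tested beyond leaving that library out.

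In LS174T the smallest adjusted p was that of SNORD110 in NOP56, with 1.32, 1.11 and 0.89 CPM in 2D and 0.40, 0.22 and 0.31 in 3D (-1.81 ± 0.42, 0.00431). The call held without each library. In HT29 it fell by 1.21 on the log2 scale (0.0234), a call lost without 2D replicate 1 (0.194), 3D replicate 1 (0.13) or 3D replicate 4 (0.125). SNORD84, in DDX39B, fell in LS513 (-1.72 ± 0.59, 0.0364) on 23 counts in 2D and 6 in 3D, a call lost without each of 5 of the 6 libraries, with adjusted p-values up to 0.138. It also fell in HT29 (-1.32 ± 0.45, 0.0213), and that call was lost without 2D replicate 3 (0.102), 3D replicate 1 (0.0978) or 3D replicate 4 (0.105).

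Members that rose were few, 5 in 1 or more lines, and each had a host that rose in the same line. The share of all genes that rose in 1 or more lines is not given here. SNORD49B rose in LS513 from 14.2, 14.8 and 19.5 CPM to 30.04, 31.9 and 21.9 (0.79 ± 0.19, adjusted p = 0.00465). In HCT116 it rose from 11.6, 10.3 and 15.3 CPM to 21.2, 23.5 and 19.4 (0.79 ± 0.20, 0.00418). In LS174T the levels were 22.4, 24.9 and 27.0 CPM in 2D and 35.1, 57.3 and 30.8 in 3D (0.73 ± 0.19, 0.00953, and 0.42 with 0.113 without 3D replicate 2). In HT29 the change was 0.46 ± 0.20 (0.0646). The 3D libraries lay above the 2D libraries in each line. LRRC75A-AS1, whose exon holds SNORD49B, rose by 0.65 to 0.89 in the 4 lines. That is the change of the whole gene, as the exon was not counted on its own.

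SNORD68, in RPL13, rose in LS513 from 0.77, 0.70 and 0.73 CPM to 1.27, 1.35 and 1.59 (0.94 ± 0.28, adjusted p = 0.0161), a call lost without 2D replicate 2 (0.0611) or 3D replicate 3 (0.0516). In LS174T it rose from 0.69, 0.68 and 0.39 CPM to 1.66, 1.31 and 0.80 (1.09 ± 0.28, 0.00866), and the adjusted p was 0.0593 without 2D replicate 3 and 0.0619 without 3D replicate 1. SNORD58B rose in LS174T (0.60 ± 0.16, 0.012, and 0.34 with 0.13 without 3D replicate 2). SNORD35A, in RPL13A, rose in LS513 (1.22 ± 0.44, 0.0457), a call lost without 5 of the 6 libraries with adjusted p-values up to 0.151. SNORD12C of ZFAS1 rose in LS513 from 2 counts in all in 2D to 24 in 3D, a ratio of levels of 13.5 with a 95% counting interval of 3.34 to 117 (adjusted p = 0.0112, and 0.0579 without 2D replicate 2).

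The comparison with the host asks whether the counts over a snoRNA moved with the RNA that carries it. Of the 38 hosts, 20 rose and 8 fell in HT29, 17 and 5 in HCT116, 25 and 3 in LS174T, and 15 and 1 in LS513. Of all genes tested, 21.1%, 16.8%, 13.1% and 13.7% rose in the same order and 19.6%, 12.3%, 9.15% and 9.9% fell. The falls were 21.1%, 13.2%, 7.89% and 2.63% of the hosts, near or below the share of all genes. Without LS174T 3D replicate 2, 19 hosts rose and 2 fell in LS174T (7.05% and 3.46% of all genes). The 14 ribosomal protein hosts rose in 14, 11, 14 and 9 cases in those lines and 0 fell. Among the 37 members with a host that fell in HT29, 18 had a host that rose, 13 a host that fell and 6 a host that was not called. Of the 30 members not called there, 22 had a host that rose, 3 a host that fell and 5 a host not called. In HCT116 the 18 that fell had 6 hosts that rose, 7 that fell and 5 not called, counting a host once for each of its members. The 48 members not called in HCT116 had 27, 4 and 17.

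Changes relative to the host were fitted with the level of the host as an offset, for 67 members. Relative to the host, 46 fell and 0 rose in HT29, where 19.6% of all genes in that fit fell, 26 fell and 1 rose in HCT116 (background 12.4% and 16.8%), 16 fell and 0 rose in LS174T (9.21% and 13.0%, or 22.3% in either direction), and 3 fell and 1 rose in LS513 (9.9% and 13.7%). The medians were -1.76, -1.12, -0.97 and -0.27. Without HT29 2D replicate 3, 36 of 68 fell in HT29, all among the 46, where 14.3% of all genes in that fit fell. Without HCT116 3D replicate 1, 43 of 69 fell and 1 rose (9.43% of all genes fell), and without LS174T 3D replicate 2, 6 of 69 or 8.70% fell (3.48%). Leaving out HCT116 2D replicate 1, 3D replicate 2 or 3D replicate 3 left 16 that fell in each case (7.75%, 8.94% and 12.7%), and leaving out LS174T 2D replicate 1 or 2 left 10 and 9 (5.07% and 5.18%). In LS513, 2 fell without each of the 2D libraries (5.63% to 7.73%) and 1 without 3D replicate 1 (5.70%). As a read can be counted for a member and for its host, a host offset that holds reads of the member draws the relative change towards 0.

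**Figure D4:**
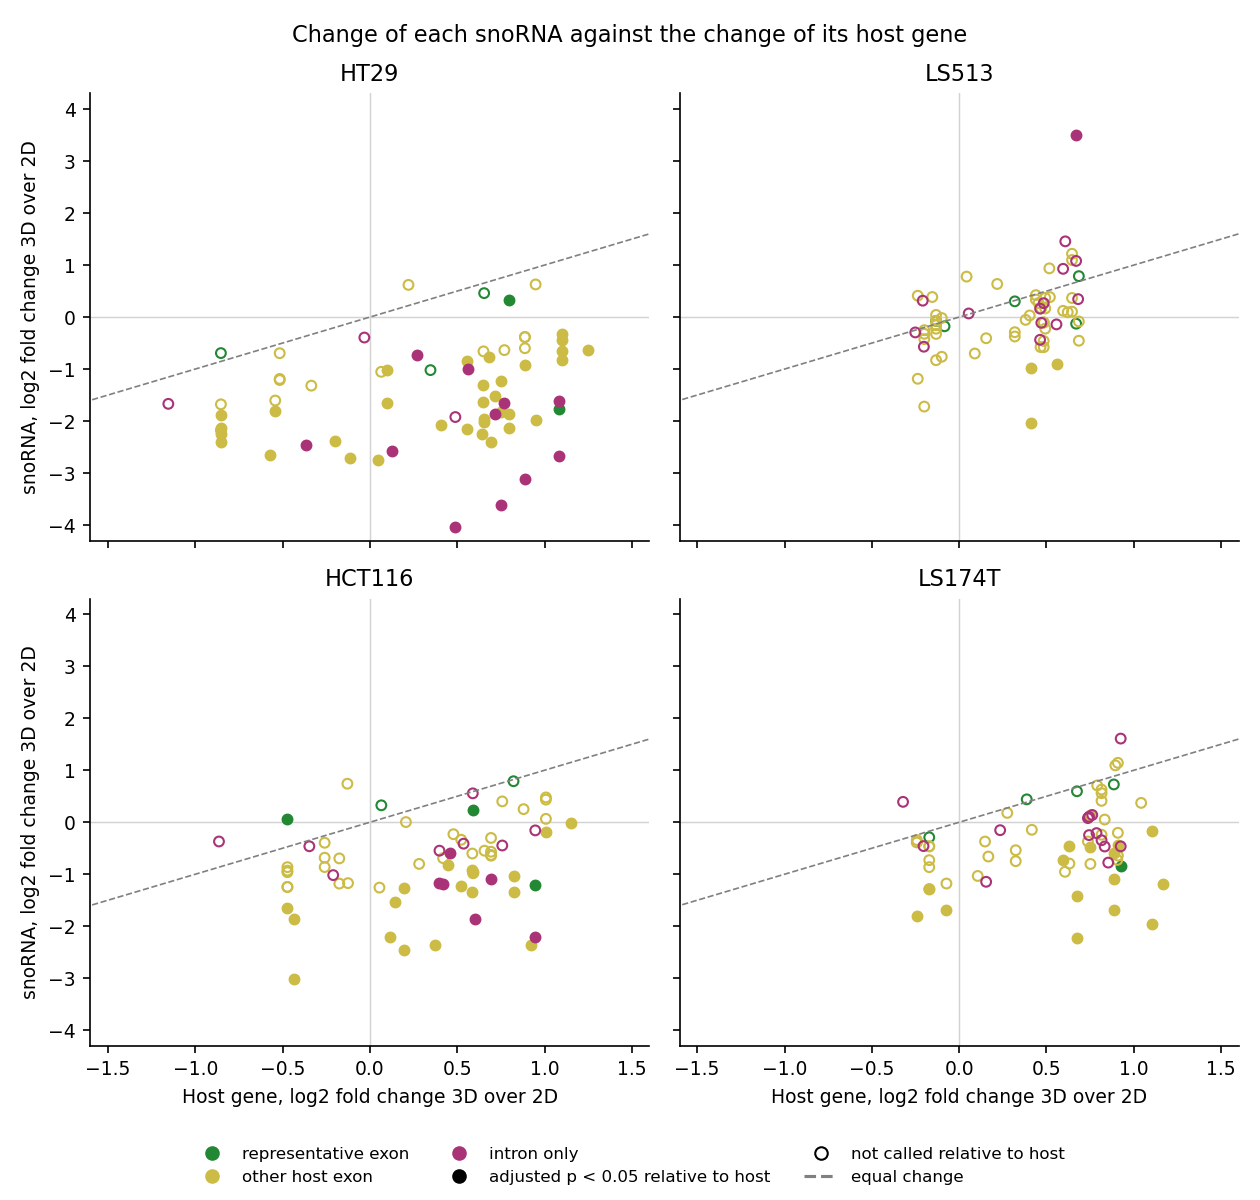
Log2 fold change of each tested member against that of its host, by line, coloured by the position of the member in the host and filled where the change relative to the host had an adjusted p below 0.05. Most points lie below the dashed line of equal change, 65 of 67 in HT29 and 49 of 67 in LS513.

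SNORD52, SNORD50B and SNORD48 fell relative to the host in all 4 lines, and 11 of 67 members did so in 3 or more. By level, 2.46% of all genes tested fell in all 4 lines. The share of all genes that fell in 3 or more is not given here. For every 1000 counts of C6orf48, SNORD52 had 12.5 ± 2.2 in HCT116 2D and 1.82 ± 1.74 in 3D, 9.02 ± 1.22 and 1.12 ± 0.16 in LS174T, 11.9 ± 3.0 and 2.20 ± 1.03 in LS513, and 10.6 ± 2.1 and 1.75 ± 0.49 in HT29 (mean ± SD, n = 3). The ratios did not overlap in any line. The changes relative to the host were -2.69 ± 0.44 (SE) in HCT116 (adjusted p = 8.63e-05), -2.98 ± 0.46 in LS174T (8.32e-05), -2.45 ± 0.52 in LS513 (0.00125) and -2.57 ± 0.53 in HT29 (0.000506), and the 4 calls held without each library. C6orf48 itself rose in HT29 (0.75) and LS174T (1.10) and was not called in LS513 (0.41, adjusted p = 0.101) or HCT116 (0.20, 0.432).

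SNORD48 shares C6orf48 with SNORD52. Its change relative to the host was -1.53 ± 0.36 in HCT116 (adjusted p = 0.00302, held without each library), -1.97 ± 0.58 in HT29 (0.00919), -1.32 ± 0.43 in LS174T (0.0302) and -1.39 ± 0.51 in LS513 (0.0483). Leaving out 1 library at a time took the adjusted p as high as 0.0524, 0.105 and 0.135 in the last 3. The change of SNORD50B relative to SNHG5 was -2.77 in HCT116 (0.000183), -3.15 in HT29 (0.000755) and -1.96 in LS174T (0.00321), each held without each library, and -1.44 in LS513 (0.0386, and 0.336 without 2D replicate 2, 0.0638 without 3D replicate 1, 0.131 without 3D replicate 2 and 0.083 without 3D replicate 3).

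Neighbours in LRRC75A-AS1 moved apart. SNORD49A, which shares 35 unbroken bases with SNORD49B and lies downstream of it, measured 1.17, 1.48 and 0.60 CPM in HT29 2D and 0.09, 0.59 and 0.18 in 3D. In LS174T it had 1.88, 1.22 and 1.22 CPM in 2D and 0.31, 0.44 and 0.58 in 3D. It fell in both lines, by 1.97 (adjusted p = 0.0161) and 1.69 (0.0346) on the log2 scale, where SNORD49B changed by 0.46 and 0.73. The HT29 call of SNORD49A was lost without 2D replicate 2 (0.0772), 3D replicate 1 (0.0954) or 3D replicate 4 (0.0631), and the LS174T call without each of 5 of the 6 libraries (up to 0.12). Relative to LRRC75A-AS1, SNORD49A fell in HT29 (-2.63 ± 0.64, 0.00242), HCT116 (-2.17 ± 0.55, 0.00464) and LS174T (-2.51 ± 0.57, 0.00365), and these calls held without each library. Relative to the same host, SNORD49B changed by -0.19 to 0.10 in the 4 lines with 0 calls, the lowest adjusted p being 0.207. SNORD49B lies in a basic-set exon of the host and SNORD49A does not.

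SNORD36A fell relative to RPL7A in HT29 (-1.96 ± 0.29, adjusted p = 1.7e-05), HCT116 (-1.93 ± 0.28, 2.61e-05) and LS174T (-1.18 ± 0.28, 0.00467), and each call held without each library. RPL7A, a protein of the large ribosomal subunit, rose in all 4 lines by 0.49 to 0.75. SNORD23 of NOP53, a ribosome biogenesis gene, measured 1.96, 1.86 and 2.30 CPM in HT29 2D and 0.85, 1.52 and 1.56 in 3D, and its own change was not called (-0.64 ± 0.27, 0.0588). Since NOP53 rose by 1.25, its relative change was -1.87 ± 0.26 (7.95e-06). In HCT116 the relative change of SNORD23 was -1.18 ± 0.27 (0.00201) and its own change -0.02 ± 0.27.

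ZFAS1, a long noncoding snoRNA host, rose in all 4 lines by 0.67 to 1.08. SNORD12, in a basic-set exon of it, measured 0.62, 0.65 and 1.21 CPM in HT29 2D and 0.30, 0.14 and 0.25 in 3D. The change in HT29 was -1.76 ± 0.40 (adjusted p = 0.00134), and relative to ZFAS1 it was -2.83 ± 0.45 (3.46e-05), a call that held without each library. In HCT116 SNORD12 fell by 1.20 on the log2 scale (0.0273), a call lost without 2D replicate 1 (0.0512), 2D replicate 2 (0.091), 3D replicate 2 (0.146) or 3D replicate 3 (0.0577). SNORD12C, an intronic neighbour, rose relative to ZFAS1 in LS513 (2.93 ± 0.97, 0.0308), a call lost without 5 of the 6 libraries (up to 0.119).

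**Figure D5:**
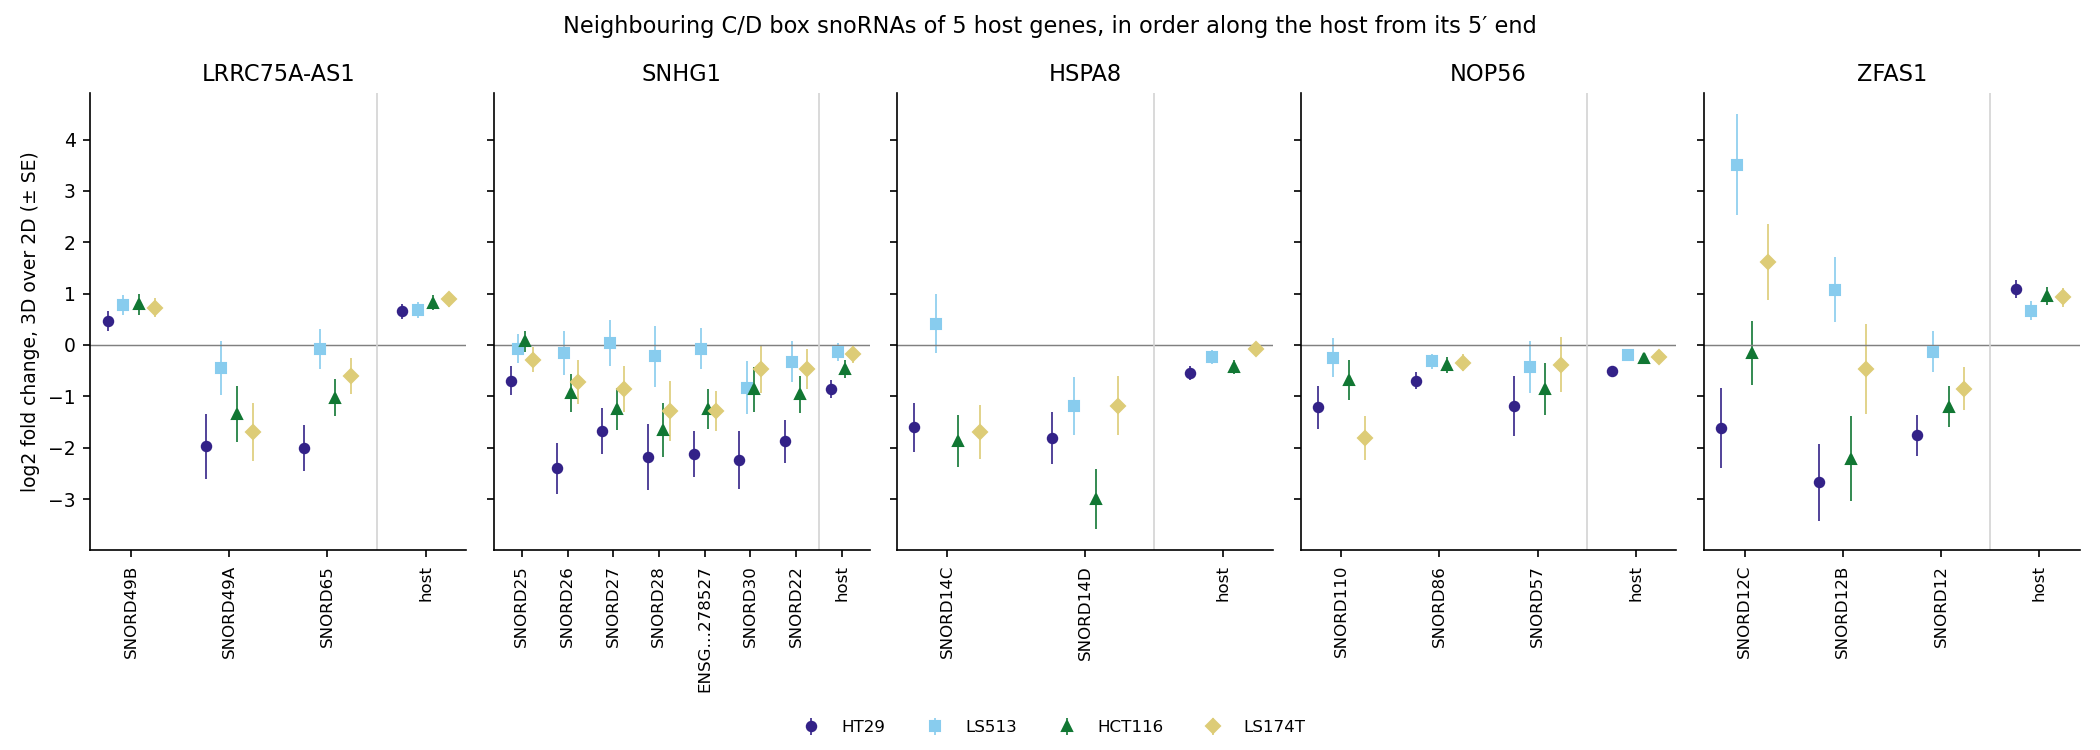
Log2 fold change of 3D over 2D (± SE) of neighbouring snoRNAs of LRRC75A-AS1, SNHG1, HSPA8, NOP56 and ZFAS1, in order from the 5′ end of the host, with the host at the right, for the 4 lines. In LRRC75A-AS1, SNORD49B lies between 0.46 and 0.79 and SNORD49A between -1.97 and -0.45.

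Some hosts fell with their members. SNHG1 fell in HT29 (-0.85, adjusted p = 0.000493) and HCT116 (-0.47, 0.0416), and of its 7 members 6 fell in HT29, 4 in HCT116, 1 in LS174T and 0 in LS513. Without HT29 2D replicate 3, HCT116 3D replicate 1 and LS174T 3D replicate 2 in turn, 6, 6 and 0 fell in those lines. Relative to SNHG1, 4 fell in HT29, and 2 without 2D replicate 3. SNORD22, the highest of the 7 per length after SNORD25, measured 2.20, 2.72 and 2.79 CPM in HT29 2D and 0.57, 1.00 and 0.51 in 3D (-1.88 ± 0.43, 0.00128), and relative to SNHG1 it fell by 1.04 (0.0117). SNORD86, in NOP56, measured 10.01, 11.87 and 8.71 CPM in HT29 2D and 5.49, 8.26 and 5.22 in 3D, a fall of 0.69 ± 0.16 (0.0016) that held without each library, where NOP56 fell by 0.52. Its change relative to NOP56 was -0.18 ± 0.12 (0.252). The 4 members of RPL13A gave 0 calls in HT29 by level, while RPL13A rose by 1.10 and all 4 fell relative to it, or 2 of the 4 without 2D replicate 3.

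SNORD25, in a basic-set exon of SNHG1, had the single rise relative to a host in HCT116 (0.59 ± 0.17, adjusted p = 0.0109, and 0.0577 without 3D replicate 3). SNORD58B fell relative to RPL17 in HT29 (-0.47, 0.00112) and HCT116 (-0.37, 0.00795, and 0.0572 without 3D replicate 1). SNORD104 of SNHG25 fell relative to it in HCT116 (-1.07, 0.00263) and in HT29 (-1.02, 0.00724, and 0.0595 without 3D replicate 1). SNORD118, the U8 RNA of large subunit processing, is known to be transcribed from its own promoter although it lies in TMEM107, and it was called in no line, with changes of -1.02 to 0.44. In all, 23 of the 68 members were called in no line by level, among them SNORD23, SNORD25, SNORD104 and SNORD118. The share of all genes called in no line is not given here.

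By position, 1 of 5 members in basic-set exons, 29 of 48 in other exons and 7 of 14 in introns fell in HT29. In HCT116 the counts were 1, 14 and 3. By host, 14 of 19 members of noncoding hosts and 23 of 48 members of protein-coding hosts fell in HT29, and 10 and 8 in HCT116. The HT29 counts without 2D replicate 3 were 1 of 5, 25 of 49 and 6 of 14 by position, and 13 of 19 and 19 of 49 by host. Without HCT116 3D replicate 1 the HCT116 counts were 1 of 5, 24 of 50 and 6 of 14, and 14 of 19 and 17 of 50. These shares were not tested against each other. The 2D and 3D libraries did not overlap, with 3D lower, for 41 members in HT29 (25.6% of all genes tested), 20 in HCT116 (17.6%), 20 in LS174T (17.6%) and 4 in LS513 (20%), and with 3D higher for 2, 2, 3 and 9 (27.3%, 22.8%, 20.9% and 23.0%). Leaving out HT29 2D replicate 3, HCT116 3D replicate 1 and LS174T 3D replicate 2, 3D was lower without overlap for 45, 49 and 31 members (28.6%, 21.5% and 22.7% of all genes tested).

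Whether the 3D effect differed between the 4 lines was tested by the interaction of line and growth. It was called for 4 of 68 members, where 17.1% of all genes tested were called. These were SNORD12C (adjusted p = 0.0194), SNORD12B (0.0278), SNORD3A (0.0438) and SNORD15B (0.0444). Without HT29 2D replicate 3 the values were 0.0468, 0.0519, 0.384 and 0.325. The counts of falls by line, 38 in HT29 and 2 in LS513, are thus not by themselves a difference between lines.

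Lines differed in 2D for 37 of 68 members, against 91.7% of all genes tested. SNORD25 stood highest in HCT116 (6.72 ± 1.09 CPM, SD, n = 3), with 1.44 ± 0.13 in LS174T, 0.97 ± 0.16 in HT29 and 0.75 ± 0.30 in LS513 (adjusted p = 3.73e-12). SNORD58B was highest in LS174T at 29.9 CPM (6.72e-10), SNORD23 in HT29 at 2.04 CPM (6.49e-08), and SNORD86 in HCT116 at 16.8 CPM (8.08e-07). HT29 and LS513 levels of SNORD25 overlapped within their spread.

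Other small RNA classes were counted in the same libraries, where 19.6%, 12.3%, 9.15% and 9.9% of all genes tested fell in HT29, HCT116, LS174T and LS513 and 21.1%, 16.8%, 13.1% and 13.7% rose. Of 54 tested H/ACA box snoRNAs, which guide pseudouridylation, 32 fell in HT29, 5 in HCT116, 2 in LS174T and 0 in LS513, and 0, 1, 1 and 1 rose. The HT29 count rested in part on 2D replicate 3, which held 195 CPM of the class against 64.1 and 59.3, and without that library 13 of 55 fell (14.3% of all genes). Without HCT116 3D replicate 1, 14 of 56 fell in HCT116 (9.36%). Of 5 tested small Cajal body RNAs, 4 fell in HT29 and 0 in the other lines, where 1 rose in HCT116 and 1 in LS174T. HT29 2D replicate 3 held 19.6 CPM of these against 3.88 and 3.41, and without it 1 of 5, SCARNA12, fell. As comparison sets added after the data were seen, 34 of 142 sense intronic genes fell in HT29, 18 in HCT116, 15 in LS174T and 12 in LS513, and 8, 3, 2 and 4 rose. Of 169 microRNA genes, 17, 9, 6 and 5 fell in the same order and 23, 14, 17 and 14 rose. Without HT29 2D replicate 3, 26 of 150 sense intronic and 11 of 173 microRNA genes fell in HT29 and 7 and 20 rose, and without LS174T 3D replicate 2, 4 of 149 and 1 of 173 fell in LS174T and 1 and 7 rose. RNAs without a poly(A) tail, 6 of the 16 listed being tested, had 0 falls outside HT29, and 1 rose in HCT116 and 1 in LS174T. Their sum in LS174T 3D was 105 CPM in replicate 2 against 10.6 and 7.95 in the other replicates.

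The genes that make, assemble and trim the C/D box particle were counted as well. Of all genes tested, 19.6%, 12.3%, 9.15% and 9.9% fell in HT29, HCT116, LS174T and LS513, and 21.1%, 16.8%, 13.1% and 13.7% rose. Of the 4 core genes, NOP56 fell in HT29 (-0.52, adjusted p = 0.000576), NOP58 fell in LS513 (-0.29, 0.011) and FBL rose in LS174T (0.48, 0.006). Of 10 genes of particle assembly, 5 fell and 2 rose in HT29, 6 and 1 in HCT116, 4 and 0 in LS513, and 2 and 3 in LS174T. HSP90AB1, a chaperone, fell by 1.01 and ZNHIT6, an assembly factor, by 0.62 on the log2 scale in HT29. Of 16 genes of snoRNA maturation and decay, 9 fell in HT29, 8 in HCT116, 4 in LS513 and 4 in LS174T, and 0 rose. NCBP1, a subunit of the nuclear cap-binding complex, and NOLC1, a nucleolar chaperone, fell in all 4 lines, by 0.44 to 0.78 and 0.33 to 0.52. Of the 4 H/ACA core genes, 2 fell and 1 rose in HT29, 1 and 1 in HCT116, 1 and 0 in LS513, and 0 and 0 in LS174T. Without LS174T 3D replicate 2, 1 of the 10 assembly genes (HSP90AB1) fell and 0 rose in LS174T, and 1 of the 4 C/D box core genes (NOP56) fell and 0 rose. In that fit 3.46% of all genes fell and 7.05% rose. Counts of these lists without libraries of HT29 or HCT116 are not given here. As these are bulk samples, fewer RNA molecules per cell and a different mix of cells cannot be told apart for any value above.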

How the data were processed

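Poly(A)+ RNA of HT29, LS513, HCT116 and LS174T grown in 2D or 3D was sequenced from stranded libraries. The authors deposited raw counts per gene. The submitters' processing notes name bcl2fastq 2.18.0.12, Trim Galore 0.4.1, STAR, HTSeq 0.5.3 and hg19, whereas the methods name an Ensembl annotation and the identifiers matched GENCODE 29 (GRCh38), from which names, positions and sequences were taken (57980 of 58243 identifiers). The counting options for overlapping genes were not given in the sources used here, and no genome was used here to look for other copies of a sequence. Counts of the 8 technical replicates (7 for 1 library) were summed to 24 libraries of 18723942 to 34277421 counts. The study's methods name DESeq2 and the removal of reads aligned at several places.

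edgeR 4.0.16 (R 4.3.3) was used with TMM scaling, filterByExpr, 1 coefficient for each of the 8 groups and the robust quasi-likelihood test, with Benjamini-Hochberg adjustment over all 19387 genes tested and calls at 0.05. For changes relative to the host, the log of host CPM plus 0.1 was added to the offset. The host was the same-strand protein-coding or long noncoding gene spanning the member, that with most counts where there were several. CPM were taken on the TMM-scaled library size, and intervals cover counting error only. Alternatives were DESeq2 1.42.0, its size factors, no filter, a replicate block, the 6 libraries of a line, each set of 4 technical replicates, a host pseudocount of 1, the shortest host and leaving out each library. The scripts were tested on simulated data. Named members were the 10 highest per length, the 4 with the lowest adjusted p in each direction and line, the 3 lowest relative to the host, the 4 lowest for the interaction and for lines in 2D, and those transcribed on their own. Results for some host genes and 1 of these members are not reported here. The members and lists were chosen with earlier results of these data known, and others are named where a count of 5 or fewer or a shared host called for it, after their values were seen. Interval limits use a confidence of 95% and a floor of 3 counts.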

Additional observations from a re-analysis of the deposited data

Results flagged for a closer look

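The 3D effect differed between the 4 lines by the interaction test for 4 members. SNORD12C had an adjusted p of 0.0194, with changes of 3.51 in LS513, 1.61 in LS174T, -0.16 in HCT116 and -1.62 in HT29. SNORD12B had 0.0278, with changes of 1.08, -0.46, -2.21 and -2.68. SNORD3A had 0.0438 and SNORD15B 0.0444, and in HT29 both rested on 2D replicate 3. Without that library the values were 0.0468, 0.0519, 0.384 and 0.325. Both ZFAS1 members are sparse, with 6 to 43 counts in a group of 3 libraries for SNORD12B.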

How the results depend on the processing

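Of 55 named calls, 34 held under every alternative setting other than leaving out a library, and none of the 55 reversed direction. Counts of calls were compared by size and not by direction. Without LS174T 2D replicate 1, for example, 2 members fell and 3 rose in LS174T, where 6 fell and 3 rose with all libraries. Reducing each library to 4 technical replicates lowers the depth and the number of members tested. With replicates a to d, calls numbered 21 in HT29, 3 in LS513 and 12 in HCT116, and relative to the host 19, 2 and 16, with 10 in LS174T. With replicates e to h they were 22 in HT29 and 3 in LS513, and relative to the host 23 in HT29, 1 in LS513 and 10 in LS174T. Replicate numbers did not pair the samples, with correlations of same-numbered libraries of -0.209 to 0.216. With the number as a replicate block, HT29 had 24 calls, all lower, where 13.4% of all genes fell. LS513 then had 2 calls relative to the host and the interaction had 2. In HT29 the 2D libraries were numbered 1, 2 and 3 and the 3D libraries 1, 3 and 4. The block fit of HT29 therefore compared growth only within numbers 1 and 3, the latter holding 2D replicate 3. The interaction gave 16 calls with no filter, 8 with DESeq2, 0 with replicates a to d and 2 with e to h, and lines in 2D gave 24 and 22. The cause was not tested where the depth does not show it. Leaving out 1 library at a time gave 29 to 46 calls in HT29, 3 to 6 in LS513, 9 to 32 in HCT116 and 4 to 11 in LS174T, relative to the host 36 to 51, 1 to 4, 16 to 44 and 6 to 19, for the interaction 1 to 17 and for lines in 2D 30 to 45. DESeq2 called 38 members in HT29, 37 lower and 1 higher, with 35 of the 38 shared, where 16.2% of all genes fell. For the other counts of this paragraph, the share of all genes called is not given here.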
